A study of Homo sapiens with 12 samples.

Results

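Cholesterol and fatty acid synthesis is described here through 33 genes chosen for their role, of which 27 were measured among 14232 genes tested. A listed gene counted as measured where a transcript cluster, the set of exon probes summarized as 1 transcript, is paired with its symbol alone. Each measured gene has 1 such cluster. ACAT2, CYP51A1, HSD17B7, SREBF2 and NPC2 lie on clusters paired with several genes and are not reported singly, and FDFT1 was not analysed here. By role, 6 of 7 genes of the mevalonate steps, 8 of 11 genes of the sterol steps, 4 of 5 regulators, 2 of 3 transport genes and 7 of 7 fatty acid genes were measured.

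The cells were A549, a human lung adenocarcinoma line, left untreated or exposed to cisplatin, a platinum drug that crosslinks DNA, at the concentration that inhibits growth by 10% (its IC10, taken by the study as the no-observed-effect level, NOEL). RNA was collected after 24 h or 48 h and hybridised to Affymetrix exon arrays, 12 in all, with 3 arrays for each of the 4 conditions (untreated 24 h, cisplatin 24 h, untreated 48 h, cisplatin 48 h). The study's methods give the replicates as independent experiments, but the labels do not say which arrays came from the same experiment, and no hybridisation batch is given in the sources used here. All values are log2 expression from robust multi-array averaging (RMA). Levels of different genes cannot be compared.

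Cells make cholesterol from acetyl-CoA through mevalonate, farnesyl diphosphate, squalene and lanosterol, and make fatty acids from the same acetyl-CoA. Both routes are driven by the sterol regulatory element-binding proteins (SREBPs), which SREBF1 and SREBF2 encode. When sterol is plentiful, INSIG proteins hold the SREBPs and their escort SCAP in the endoplasmic reticulum, and when it falls, SCAP carries them to the Golgi, where they are cut and released to the nucleus. SREBF1 and INSIG1 are themselves SREBP targets.

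One array stood apart. Untreated 24 h replicate 3 had a mean Pearson correlation of 0.972 with the other arrays across all clusters, against 0.987 to 0.990 for the other 11. The study's methods state that an outlying sample set of the earlier time was discarded, without naming it. All 12 deposited arrays are used here, and the main counts and medians are also given without this one. It was the lowest of the 12 arrays for 16 of the 27 measured members, and for 37.4% of all genes. Untreated 48 h replicate 1 was the highest array for 11 members and for 16.5% of all genes. Of the epithelial keratins, KRT8 was between 13.43 and 13.76 and KRT18 between 11.34 and 11.65 over the 12 arrays. PTPRC, a leukocyte marker, was between 3.63 and 4.18. Other markers of the same lists lay differently, with a mean over the 12 arrays of 7.24 for the epithelial EPCAM and 7.89 for the leukocyte CD14. Since levels are not comparable between genes, these values check the label only loosely. All 11 measured p53 target genes were above the untreated level in cisplatin-treated cells over both times, as were 53.8% of all genes. That list was chosen with earlier results of these data known, so its count is not a test of the treatment. CDKN1A, the cell cycle inhibitor p21, rose by 1.14 (SE 0.10, adjusted p = 0.000254, limma).

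The clearest difference among the synthesis genes was between the 2 collection times. SREBF1, INSIG1, STARD4 and SCD were 0.52 to 0.77 log2 units higher at 48 h than at 24 h over both treatments. The differences within untreated and within cisplatin-treated cells had the same sign. The difference over both treatments averages those 2, so their shared sign is not separate support. Cisplatin itself moved no measured member past an adjusted p of 0.05 at either time.

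Of the regulators, SREBF1 had the smallest adjusted p. In untreated cells SREBF1 was at 9.46, 9.26 and 9.33 at 24 h and at 10.00, 9.93 and 9.84 at 48 h. In cisplatin-treated cells SREBF1 was at 9.45, 9.38 and 9.26 at 24 h and at 9.95, 9.78 and 9.78 at 48 h. Every 48 h array was above every 24 h array, and the treated and untreated arrays of a time overlapped. SREBF1 rose by 0.52 over both treatments (SE 0.07, 95% interval 0.37 to 0.68, 1.44-fold, adjusted p = 0.00655, limma). The difference was 0.57 in untreated cells (SE 0.11, adjusted p = 0.237) and 0.48 in cisplatin-treated cells (SE 0.11, adjusted p = 0.901). The test over both treatments, which uses all 12 arrays, was added after the data had been seen, and with 3 arrays against 3 the difference did not pass the threshold within either treatment.

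INSIG1, which retains the SREBPs, was more variable. In untreated cells INSIG1 was at 8.35, 8.12 and 7.73 at 24 h and at 9.37, 8.60 and 8.96 at 48 h. In cisplatin-treated cells it was at 8.21, 8.20 and 8.29 at 24 h and at 8.98, 8.57 and 8.93 at 48 h. The 2 times did not overlap, the lowest value belonged to the 24 h array that stood apart, and the highest to untreated 48 h replicate 1. INSIG1 rose by 0.75 over both treatments (SE 0.14, 95% interval 0.46 to 1.04, 1.68-fold, adjusted p = 0.0491). The difference was 0.91 in untreated cells (SE 0.19, adjusted p = 0.366) and 0.59 in cisplatin-treated cells (SE 0.19, adjusted p = 0.9999). The other measured regulators, INSIG2 and the escort SCAP, differed by 0.15 and 0.07 over both treatments, neither at an unadjusted p under 0.05.

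STARD4 encodes a protein that carries cholesterol between membranes. It was at 7.42, 7.50 and 7.51 in untreated cells and at 7.71, 7.62 and 7.75 in cisplatin-treated cells at 24 h. At 48 h STARD4 was at 8.40, 7.89 and 8.08 in untreated cells and at 8.06, 8.02 and 8.25 in cisplatin-treated cells. All 48 h arrays were above all 24 h arrays, and at 24 h all cisplatin arrays were above all untreated arrays, which held for 1 of 27 members and for 5.94% of all genes. STARD4 rose with time by 0.53 over both treatments (SE 0.09, 1.45-fold, adjusted p = 0.0397), where the difference was 0.65 in untreated cells (SE 0.13, adjusted p = 0.326) and 0.42 in cisplatin-treated cells (SE 0.13, adjusted p = 0.9999). Its difference with cisplatin at 24 h was 0.22 (95% interval -0.06 to 0.49, unadjusted p = 0.115, limma). NPC1, which moves cholesterol out of lysosomes, was the single member whose difference between times was negative over both treatments, at -0.04.

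Among the fatty acid genes the widest time difference was in SCD, the desaturase that places a double bond in saturated chains. SCD was at 11.16, 11.34 and 10.71 in untreated cells and at 10.78, 11.18 and 11.20 in cisplatin-treated cells at 24 h. At 48 h SCD was at 12.08, 11.41 and 12.00 in untreated cells and at 11.97, 11.51 and 12.01 in cisplatin-treated cells. The times did not overlap, with replicate 2 the lowest array of each 48 h group. The difference was 0.77 over both treatments (SE 0.14, 1.70-fold), 0.76 in untreated and 0.78 in cisplatin-treated cells, and its adjusted p over both treatments of 0.0557 missed the threshold.

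FADS2, a desaturase of polyunsaturated chains, was at 11.47, 11.27 and 11.36 (untreated) and 11.24, 11.38 and 11.60 (cisplatin) at 24 h. At 48 h FADS2 was at 11.89, 11.45 and 11.92 (untreated) and 11.96, 11.62 and 11.97 (cisplatin). Untreated 48 h replicate 2 lay inside the range of the 24 h arrays, and the difference over both treatments was 0.42 (SE 0.10, adjusted p = 0.168). FASN, the fatty acid synthase, was at 10.35, 10.36 and 10.16 (untreated) and 10.36, 10.34 and 10.37 (cisplatin) at 24 h, and at 10.40, 10.54 and 10.56 (untreated) and 10.49, 10.49 and 10.56 (cisplatin) at 48 h. Its 48 h arrays were all above its 24 h arrays, by a mean of 0.18 (SE 0.07, adjusted p = 0.578). Over both treatments ACACA, which makes malonyl-CoA, differed by 0.25, FADS1, a second desaturase of polyunsaturated chains, by 0.22, ELOVL6, an elongase, by 0.10 and ACLY, which makes cytosolic acetyl-CoA, by 0.01.

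Among the mevalonate and sterol enzymes, the difference between the times over both treatments ran from 0.02 to 0.36. MVK, mevalonate kinase, was at 8.55, 8.43 and 8.31 (untreated) and 8.50, 8.45 and 8.56 (cisplatin) at 24 h, and at 8.73, 8.71 and 8.77 (untreated) and 8.76, 8.67 and 8.78 (cisplatin) at 48 h. DHCR7, the enzyme of the last step to cholesterol, was at 10.66, 10.48 and 10.40 (untreated) and 10.37, 10.46 and 10.70 (cisplatin) at 24 h, and at 10.88, 10.75 and 10.92 (untreated) and 10.99, 10.75 and 10.95 (cisplatin) at 48 h. Neither gene overlapped between the times, with differences over both treatments of 0.27 for MVK (SE 0.07, adjusted p = 0.181) and 0.36 for DHCR7 (SE 0.08, adjusted p = 0.128).

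LSS, the synthase of lanosterol, was at 8.98, 8.82 and 8.68 (untreated) and 8.98, 8.85 and 8.92 (cisplatin) at 24 h, and at 9.16, 9.06 and 9.08 (untreated) and 9.18, 8.95 and 9.10 (cisplatin) at 48 h. Its untreated arrays separated by time and its cisplatin arrays did not, and the difference over both treatments was 0.22 (SE 0.08, adjusted p = 0.497). HMGCS1, which joins acetyl groups ahead of mevalonate, was at 10.65, 10.70 and 9.66 (untreated) and 10.71, 10.57 and 10.34 (cisplatin) at 24 h, and at 10.92, 10.46 and 10.22 (untreated) and 10.49, 10.44 and 10.33 (cisplatin) at 48 h. SQLE, squalene epoxidase, was at 10.97, 10.98 and 10.47 (untreated) and 10.92, 10.87 and 10.93 (cisplatin) at 24 h, and at 11.34, 10.84 and 10.95 (untreated) and 10.92, 10.73 and 11.04 (cisplatin) at 48 h. Both genes overlapped between all conditions, and their time differences over both treatments were 0.04 for HMGCS1 (95% interval -0.32 to 0.39) and 0.11 for SQLE (95% interval -0.13 to 0.36). The remaining mevalonate enzymes (PMVK, MVD, IDI1 and FDPS) differed by 0.07 to 0.28 and the remaining sterol enzymes (TM7SF2, MSMO1, NSDHL, EBP and SC5D) by 0.02 to 0.30 over both treatments.

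**Figure D1:**
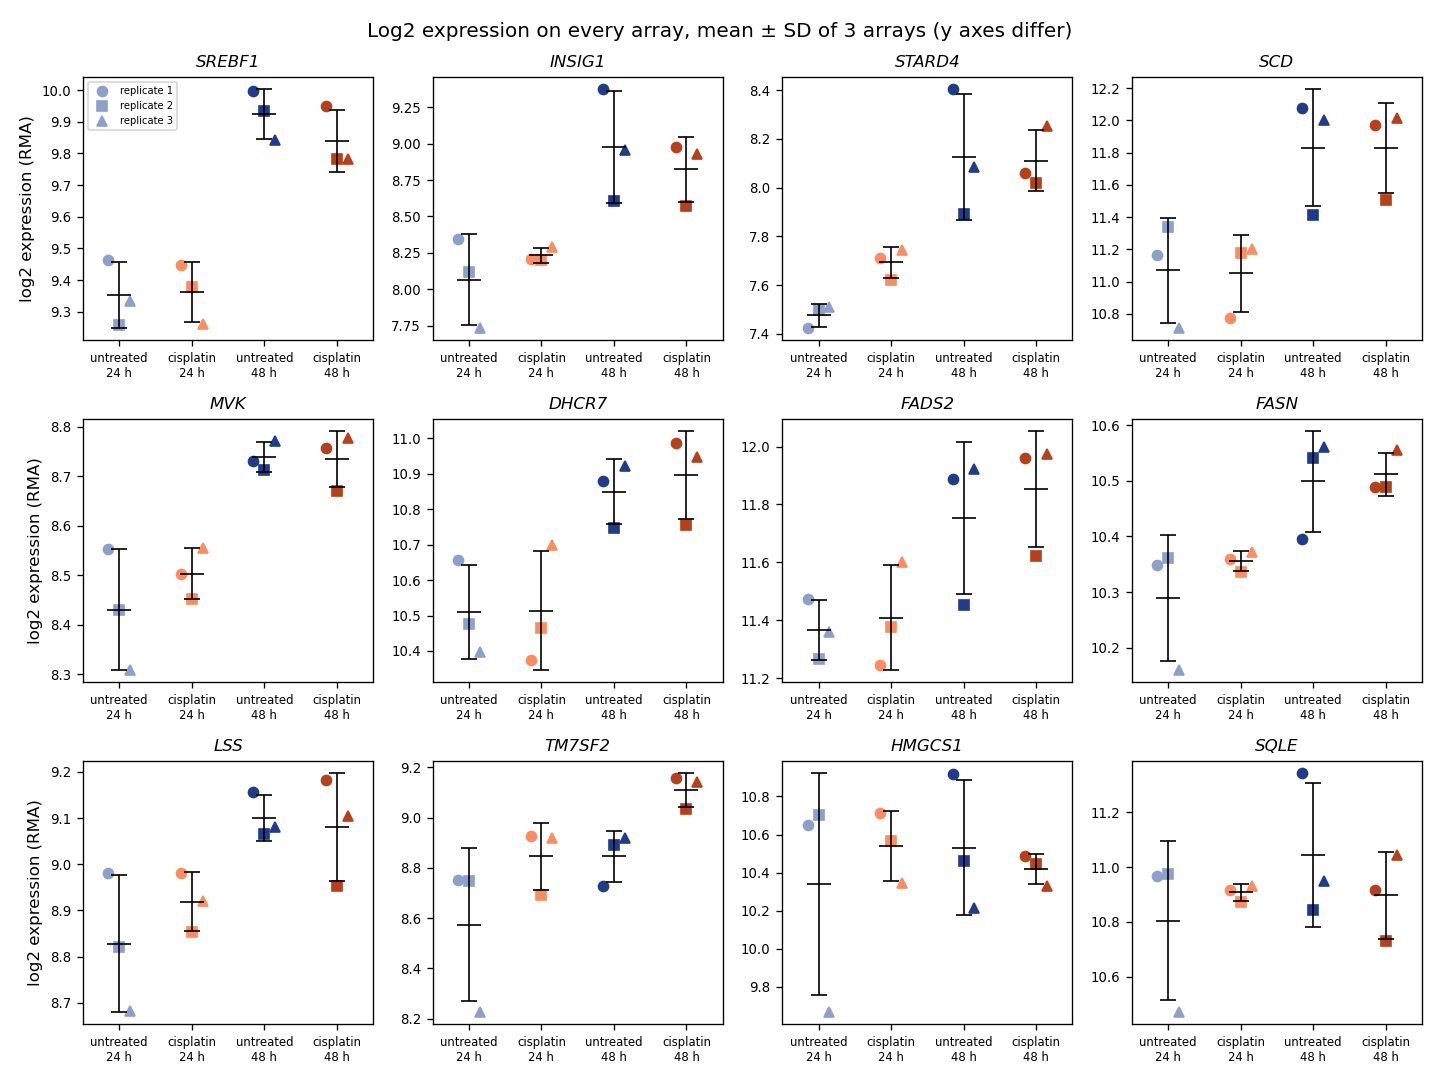
Log2 expression (RMA) of 12 genes on each of the 12 arrays, by condition, with marker shapes for the replicate numbers and bars for the mean ± SD of 3 arrays. The y axes differ between genes. In SREBF1, INSIG1, STARD4, SCD, MVK, DHCR7 and FASN all 48 h arrays lie above all 24 h arrays, whereas in HMGCS1 and SQLE the times overlap.

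Over all measured members, the difference between the times was positive for 26 of 27 over both treatments, while it was positive for 56.8% of all genes tested. SREBF1, INSIG1 and STARD4 passed an adjusted p under 0.05, as 0.134% of all genes did. SREBF1 passed whichever array was left out. Both INSIG1 and STARD4 passed when replicate 2 of either 48 h group was left out, STARD4 but not INSIG1 passed without untreated 48 h replicate 1, and neither passed with any 1 of the other 9 arrays left out, where the adjusted p reached 0.149 for INSIG1 and 0.136 for STARD4. SCD also passed when replicate 2 of either 48 h group was left out. At an unadjusted p under 0.05, 14 of 27 members were higher at 48 h (4.86% of all genes) and 0 were lower (1.26% of all genes). The 14 comprised 2 mevalonate, 4 sterol and 5 fatty acid genes, 2 regulators and 1 transport gene. The 6 arrays of 48 h lay above the 6 arrays of 24 h without overlap for 7 members, MVK, DHCR7, SREBF1, INSIG1, STARD4, FASN and SCD, and for 0.836% of all genes. The median difference of the members was 0.18, beside 0.02 over all genes. Without untreated 24 h replicate 3, the difference was positive for 23 of 27 members and 12 passed an unadjusted p under 0.05. The members' median was then 0.15, beside 0.01 over all genes.

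Within untreated cells, 24 of 27 members were higher at 48 h (59.6% of all genes), with a median difference of 0.21 beside 0.04 over all genes. No member passed an adjusted p under 0.05 (0% of all genes), and 8 members were higher at an unadjusted p under 0.05 (4.92% of all genes) with 0 lower (0.963% of all genes). Within cisplatin-treated cells, 22 of 27 were higher (49.3% of all genes), with a median of 0.16 beside -0.0018. No member passed an adjusted p under 0.05 here either (0% of all genes), while 7 members were higher at an unadjusted p under 0.05 (1.38% of all genes) and 0 lower (0.668% of all genes). The 2 comparisons share no array, though they share the fitted variances and may share experiments. MVK, DHCR7, SREBF1, INSIG1, STARD4, SCD and FADS2 were on both lists, which is 87.5% of the untreated list and 100% of the cisplatin list. In both treatments 19 members were higher at 48 h. The shares of all genes on both lists, or higher in both, were not counted, so these overlaps cannot be set beside them. Without untreated 24 h replicate 3, the median in untreated cells was 0.12, and 7 of the 8 members, all but LSS, were higher at an unadjusted p under 0.05. The 48 h arrays lay above the 24 h arrays without overlap for 8 members in untreated cells (5.86% of all genes) and for 12 in cisplatin-treated cells (5.07% of all genes).

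**Figure D2:**
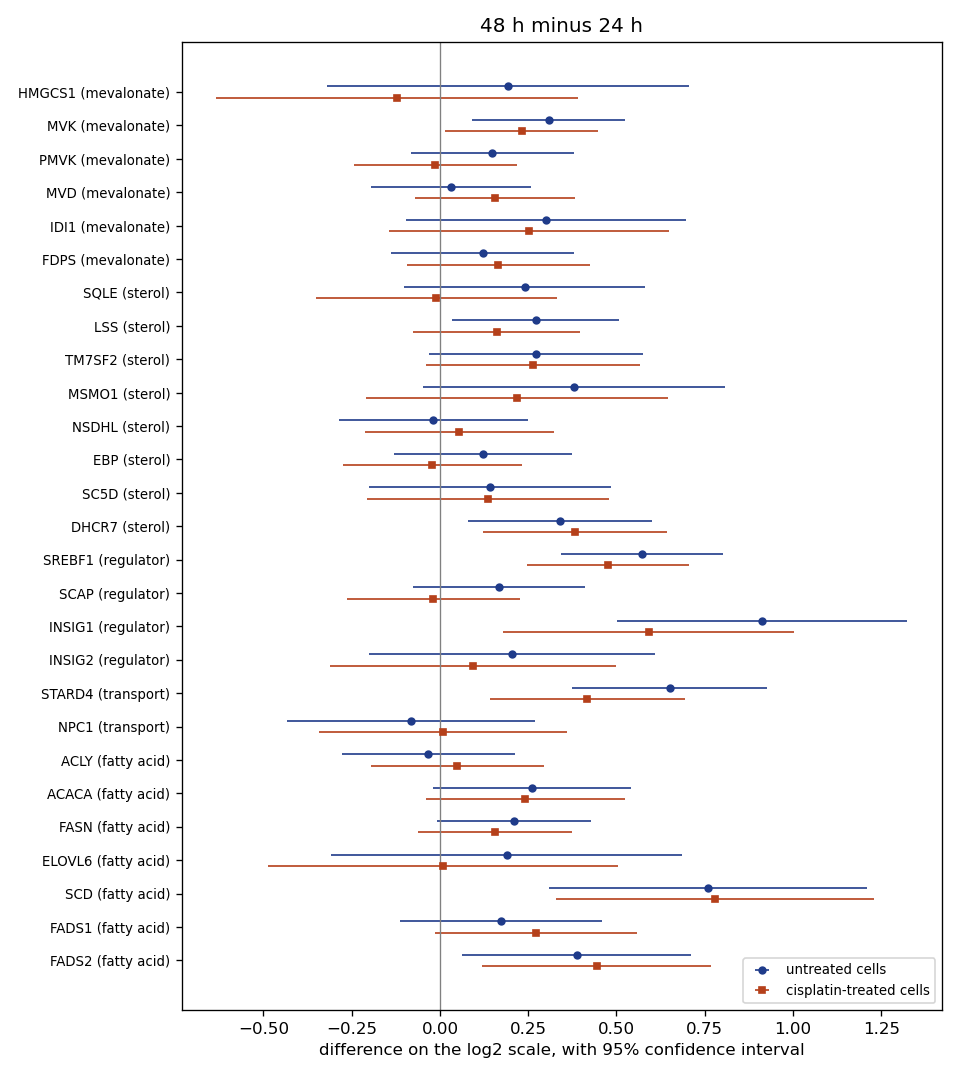
Difference between 48 h and 24 h on the log2 scale (x axis) for the 27 measured members (y axis, with their role), separately in untreated and in cisplatin-treated cells, with 95% confidence intervals from the limma fit of 4 groups. The intervals of SREBF1, INSIG1, STARD4, SCD, MVK, DHCR7 and FADS2 lie above 0 in both treatments.

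The median deviation of the members from their means over the 12 arrays describes them array by array. At 24 h it was -0.01, -0.10 and -0.29 in untreated cells and -0.10, -0.11 and -0.03 in cisplatin-treated cells. At 48 h it was 0.19, 0.00 and 0.11 in untreated cells and 0.16, 0.01 and 0.17 in cisplatin-treated cells. All 6 of the 48 h arrays were above all 6 of the 24 h arrays, with replicate 2 the lowest array of each 48 h group. The gap was narrow and did not hold relative to the median of all genes on the same array. On untreated 24 h replicate 1 the members (-0.01) lay above all genes (-0.03). On replicate 2 at 48 h the members lay below all genes, in untreated (0.00 beside 0.08) and in cisplatin-treated cells (0.01 beside 0.02). Over all genes, the median deviation of an array ranged from -0.10 to 0.08.

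**Figure D3:**
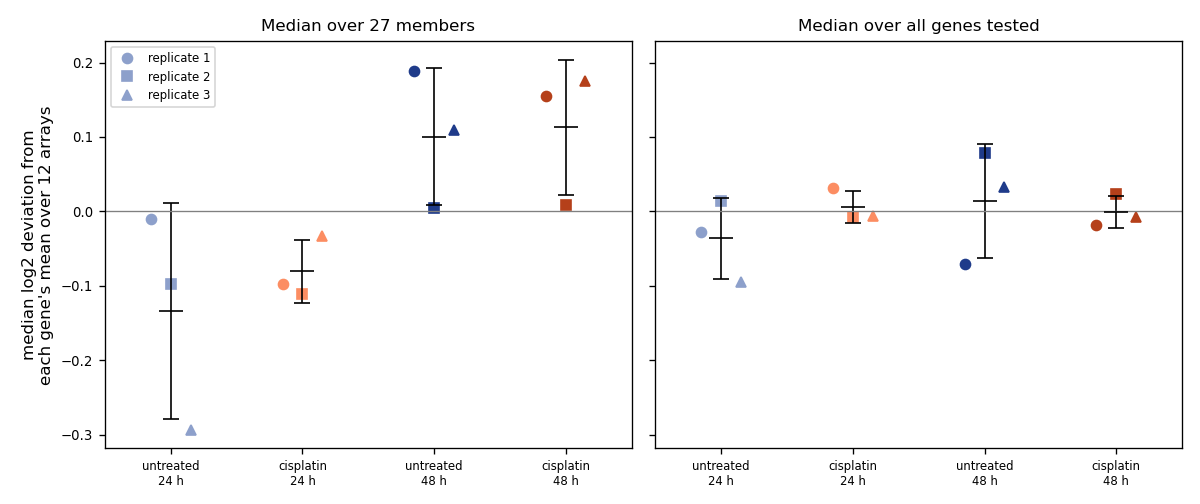
Median log2 deviation of the 27 members (left) and of all 14232 genes tested (right) from each gene's mean over the 12 arrays, by condition, with bars for the mean ± SD of 3 arrays. The members' medians run from -0.29 to -0.01 at 24 h and from 0.00 to 0.19 at 48 h.

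The time difference was set beside markers that were not members. Of the epithelial list, 6 of 9 genes were measured, and the mean log2 level of the 6 on an array ran from 11.12 to 11.28 at 24 h in untreated cells and from 11.12 to 11.26 in cisplatin-treated cells, and at 48 h from 11.36 to 11.42 and from 11.36 to 11.47. Higher at 48 h over both treatments at an unadjusted p under 0.05 were 2 of the 6 (4.86% of all genes), both markers of the epithelial state. They were CDH1 (E-cadherin, 0.57, adjusted p = 0.114, limma) and EPCAM (an adhesion molecule, 0.43, adjusted p = 0.204, limma). Of the growth list, with genes of replication and mitosis, 9 of 10 were measured and 0 of the 9 passed that threshold, with differences from -0.11 to 0.17. Of the leukocyte list, 3 of 4 genes were measured, and 1 of the 3, CD14, was also higher at 48 h at that threshold. The differences between the times were 0.30 for CD14, 0.01 for PTPRC and -0.13 for CD3E, with a median of 0.01. The mean log2 level of the 3 on an array ran from 5.47 to 5.93 (untreated) and from 5.46 to 5.63 (cisplatin) at 24 h, and from 5.54 to 5.72 and from 5.51 to 5.72 at 48 h. The part of these genes in the members' difference was not tested.

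Other genes of sterol and fatty acid metabolism were counted from lists of 53 further genes, of which 36 were measured. Over both treatments 0 of the 36 passed an adjusted p under 0.05 (0.134% of all genes), and 5 were higher at 48 h at an unadjusted p under 0.05 (4.86% of all genes). They were MYLIP, which marks the LDL receptor for degradation (0.37), SLC25A1, the mitochondrial citrate carrier (0.33), SCD5, a second stearoyl-CoA desaturase (0.33), LPIN1, a phosphatidate phosphatase (0.30), and MID1IP1, which activates acetyl-CoA carboxylase (0.25). By group, these were 4 of 15 other fatty acid genes, 1 of 10 genes of uptake, export and storage, and 0 of 7 other regulators and 0 of 4 other synthesis genes. Such short lists do not allow the groups to be compared. In untreated cells RNF139, a ubiquitin ligase of the endoplasmic reticulum, was also higher at 48 h (0.42, unadjusted p = 0.0389, limma), with a difference of 0.04 in cisplatin-treated cells. Its untreated values were 9.49, 9.38 and 8.70 at 24 h and 9.90, 9.50 and 9.42 at 48 h. The 8.70 came from the 24 h array that stood apart, and the other values of the 2 times overlapped. MID1IP1 differed by 0.43 between the times in untreated cells and by 0.06 in cisplatin-treated cells, and the difference between them was -0.37 (unadjusted p = 0.0463, limma), which did not pass after adjustment over all genes.

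To show the regulatory sequence of genes that were higher at 48 h together, the RefSeq promoters (build GRCh38.p14, 250 bases before to 50 bases after the annotated start) of the 3 genes past the adjusted threshold and of SCD and MVK are printed 5′ to 3′ on the gene's strand. They are INSIG1 at chr7:155297628-155297927 (plus strand), SCD at chr10:100346983-100347282 (plus strand), STARD4 at chr5:111512486-111512785 (minus strand), MVK at chr12:109573544-109573843 (plus strand) and SREBF1 at chr17:17836937-17837236 (minus strand). Capitals mark CCAAT, the letters that the factor NF-Y is known to bind, and CACNCCAC, the core of a sterol regulatory element, each on either strand (so also as ATTGG).
INSIG1: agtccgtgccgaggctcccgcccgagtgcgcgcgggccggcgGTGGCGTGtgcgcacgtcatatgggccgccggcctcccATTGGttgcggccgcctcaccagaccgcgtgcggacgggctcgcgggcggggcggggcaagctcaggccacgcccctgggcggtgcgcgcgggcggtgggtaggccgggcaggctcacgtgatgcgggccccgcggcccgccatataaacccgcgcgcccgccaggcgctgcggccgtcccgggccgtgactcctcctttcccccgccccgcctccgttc
SCD: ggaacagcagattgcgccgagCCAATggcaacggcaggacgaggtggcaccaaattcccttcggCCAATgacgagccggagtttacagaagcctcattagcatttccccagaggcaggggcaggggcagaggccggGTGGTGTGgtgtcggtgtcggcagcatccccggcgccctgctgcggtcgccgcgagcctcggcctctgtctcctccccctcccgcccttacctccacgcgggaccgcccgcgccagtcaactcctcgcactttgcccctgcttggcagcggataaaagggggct
STARD4: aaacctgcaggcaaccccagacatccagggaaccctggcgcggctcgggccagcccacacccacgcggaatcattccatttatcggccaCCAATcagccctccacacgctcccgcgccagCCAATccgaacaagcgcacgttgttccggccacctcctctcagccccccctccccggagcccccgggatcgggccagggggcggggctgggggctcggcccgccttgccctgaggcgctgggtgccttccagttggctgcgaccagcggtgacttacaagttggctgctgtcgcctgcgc
MVK: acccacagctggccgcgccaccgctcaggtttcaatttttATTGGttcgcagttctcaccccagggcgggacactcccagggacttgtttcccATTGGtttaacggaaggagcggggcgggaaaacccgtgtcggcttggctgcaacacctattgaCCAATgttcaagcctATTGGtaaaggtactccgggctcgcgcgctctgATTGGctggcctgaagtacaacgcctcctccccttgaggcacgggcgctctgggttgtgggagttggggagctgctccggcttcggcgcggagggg
SREBF1: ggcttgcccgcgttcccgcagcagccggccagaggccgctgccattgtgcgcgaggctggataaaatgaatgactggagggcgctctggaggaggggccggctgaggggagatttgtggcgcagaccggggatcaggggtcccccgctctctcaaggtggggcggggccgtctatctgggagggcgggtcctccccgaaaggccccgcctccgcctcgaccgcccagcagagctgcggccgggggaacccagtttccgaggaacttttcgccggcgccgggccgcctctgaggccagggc

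The core CACNCCAC was present on the opposite strand of the INSIG1 promoter, as GTGGCGTG from -208 to -201 before the start, and of the SCD promoter, as GTGGTGTG from -114 to -107. CCAAT was found 5 times in the MVK promoter, 2 times each in those of SCD and STARD4, 1 time in that of INSIG1 and 0 times in that of SREBF1. Only the printed window was searched for SREBF1, so the rest of its regulatory sequence is not described. MVK was not next after SCD by adjusted p. DHCR7 and FADS2, not printed, had smaller values than MVK. CCAAT was found 0 and 2 times in the windows of DHCR7 and 0 and 1 time in those of FADS2. Over the 35 promoter windows of measured members, several of which belong to 1 gene and overlap, CCAAT was present in 22 (62.9%), against 34.7% of the 16426 windows of all genes tested. The 35 windows include none of FASN or SQLE. CACNCCAC was present in 6 windows (17.1%), of ACACA, IDI1, INSIG1, SC5D and SCD, against 6.18% of all windows. The longer element TCACNCCAC, which ends in CACNCCAC, was searched first and was present in 0 of the 35 windows, against 1.17% of all windows; the shorter core was chosen after that. A match describes the letters only, and binding in these cells was not measured.

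No effect of cisplatin on the 27 measured members was detected after adjustment over all genes. Over both times the cisplatin-treated minus untreated difference was positive for 23 of 27 members (53.8% of all genes), but the median was 0.04, beside 0.0089 over all genes. No member passed an adjusted p under 0.05 (0.0281% of all genes), and 1 passed an unadjusted p under 0.05 (3.33% of all genes). The 6 cisplatin arrays lay above the 6 untreated arrays for 0 members and for 0.218% of all genes. Without untreated 24 h replicate 3 the difference was positive for 13 members, with a median of -0.0017.

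The 1 member was TM7SF2, a sterol reductase of the steps after lanosterol. TM7SF2 was at 8.75, 8.75 and 8.22 in untreated and at 8.93, 8.69 and 8.92 in cisplatin-treated cells at 24 h. At 48 h TM7SF2 was at 8.73, 8.89 and 8.92 in untreated and at 9.16, 9.03 and 9.14 in cisplatin-treated cells. The treated arrays overlapped the untreated ones at 24 h and were all above them at 48 h, when 2 of 27 members, TM7SF2 and NSDHL, and 3.58% of all genes separated in this way. Its difference was 0.27 over both times (SE 0.10, 95% interval 0.06 to 0.47, unadjusted p = 0.0137, adjusted p = 0.991, limma), 0.27 at 24 h and 0.26 at 48 h. Without untreated 24 h replicate 3 the difference was 0.10 at 24 h and 0.19 over both times.

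At 24 h, 24 of 27 members were above the untreated level (57.9% of all genes), with a median of 0.08 beside 0.03 over all genes. At that time 0 members passed an adjusted p under 0.05 (0.00703% of all genes) and 0 an unadjusted p under 0.05 (3.06% of all genes). Untreated 24 h replicate 3, lowest for 16 members, is among the untreated arrays of that comparison, and without it 15 members were above the untreated level, with a median of 0.0009. At 48 h, 12 of 27 were above the untreated level (42.2% of all genes), with a median of -0.0021 beside -0.02. Again 0 members passed an adjusted p under 0.05 (0% of all genes) and 0 an unadjusted p under 0.05 (1.15% of all genes).

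The intervals show what size of cisplatin effect the arrays could have missed. For SREBF1 the difference over both times was -0.04 (95% interval -0.19 to 0.12), for INSIG1 0.01 (-0.28 to 0.30), for SCD -0.01 (-0.31 to 0.29) and for FASN 0.04 (-0.11 to 0.19). The widest interval belonged to HMGCS1, with a difference of 0.04 (-0.31 to 0.40), and SQLE had one of -0.02 (-0.26 to 0.22). Every interval of the 27 members except that of TM7SF2 held 0. Of the 36 other sterol and fatty acid genes, FADS3, a desaturase-like gene, differed by 0.17 (unadjusted p = 0.0350, adjusted p = 0.991, limma).

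**Figure D4:**
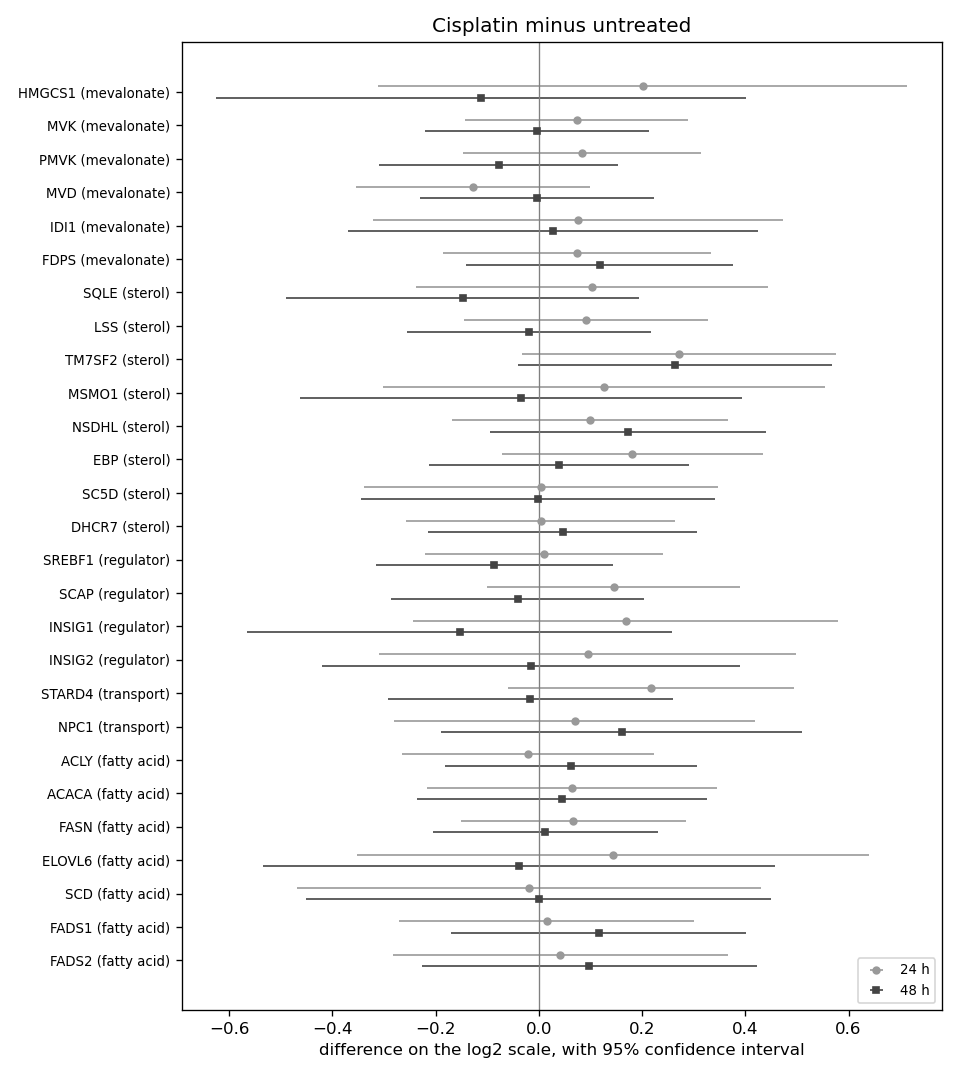
Cisplatin-treated minus untreated difference on the log2 scale (x axis) for the 27 measured members (y axis, with their role) at 24 h and at 48 h, with 95% confidence intervals from the limma fit of 4 groups. All intervals at both times hold 0, and those of TM7SF2, at 0.27 and 0.26, have lower ends of -0.03 and -0.04.

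Whether the cisplatin effect differed between the times, which is the same contrast as whether the time difference differed between the treatments, was tested directly. No member passed an adjusted p under 0.05 (0% of all genes) or an unadjusted p under 0.05 (1.15% of all genes), and the median of this difference was -0.05. For INSIG1 it was -0.32 (95% interval -0.90 to 0.26), for STARD4 -0.23 (-0.62 to 0.16) and for SREBF1 -0.10 (-0.42 to 0.23). A difference between the treatments in the size of the time change was therefore not detectable with 3 arrays per condition, and these intervals do not show that it was the same.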

How the data were processed

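RNA of A549 cells was measured on 12 Affymetrix exon arrays. The submitters' processing notes name Affymetrix Expression Console, Affymetrix Power Tools, limma and RMA, by which the authors normalized the arrays. The deposited values are log2 values per transcript cluster, from 2.14 to 14.31, for 22011 clusters. The versions, the cluster definitions and the genome build are not given in the sources used here. For arrays, the number of arrays limits the precision.

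Of the clusters, 14432 are paired with 1 symbol, 2408 with more than 1, and 5171 have no entry in the table of probes. The brightest cluster of a gene was kept, which left 14232 genes. All 12 arrays were used. With R 4.3.3 and limma 3.58.1, a fit with treatment and time gave the cisplatin effect over both times and the time difference over both treatments, and a fit of 4 groups gave the other contrasts. The latter time difference was added after seeing the data. Adjusted p-values are Benjamini-Hochberg values over all genes, with a threshold of 0.05. The procedure was tested on simulated data. Comparisons at 1 time or within 1 treatment share arrays with the pooled ones.

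The members and lists were chosen with earlier results of these data known. Every measured member is given, with values on every array for members at an unadjusted p under 0.05 in any planned contrast and for SREBF1, INSIG1, HMGCS1, SQLE, FASN and SCD. Of the other lists, genes of sterol and fatty acid metabolism at an unadjusted p under 0.05 are named. KRT8, KRT18, PTPRC, CDKN1A, CDH1, EPCAM, CD14 and CD3E were named outside this rule, after their values were seen. Lists of alveolar, fibroblast and endothelial markers were also measured and are not described here. The alternatives were quantile normalization, array weights, robust variances with a trend, a fit on genes above the median level, averaging a gene's clusters, the replicate number as a block, no time term, an unadjusted threshold and leaving out each array.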

Additional observations from a re-analysis of the deposited data

Results flagged for a closer look

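Each member was looked at in 4 groups of 6 arrays (all untreated, all cisplatin, all 24 h and all 48 h arrays) for a highest or lowest value far from the others. Of 108 groups, 13 had one. Chance gives about 1 in 20 for separate groups of independent values. The groups here share arrays and mix conditions, so the 13 cannot be read against that share. In 9 of the 13 the value was the lowest and came from untreated 24 h replicate 3, the array that stood apart over all genes. On that array HMGCS1 was at 9.66, where the next 24 h array was at 10.34. SQLE was at 10.47, INSIG1 at 7.73, ACACA at 9.53, FASN at 10.16 and ELOVL6 at 9.19, each below the other 24 h arrays. SCAP, at 9.22, was below the other untreated arrays, and TM7SF2, at 8.22, was below both the other untreated and the other 24 h arrays.

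The other 4 values came from other arrays. PMVK was at 8.25 on cisplatin 24 h replicate 1, above the other 24 h arrays. EBP was at 10.13 on cisplatin 24 h replicate 3, above the other cisplatin arrays, and at 9.81 on untreated 48 h replicate 3, below the other 48 h arrays. SC5D was at 9.31 on cisplatin 24 h replicate 1, below the other cisplatin arrays.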

How the results depend on the processing

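No difference changed its direction past a threshold under any alternative run. For the time difference over both treatments, SREBF1 kept an adjusted p under 0.05 in all 18 alternatives, from 0.00068 to 0.0303. In contrast, 3 members passed with all arrays, 1 to 4 with 1 array left out and 14 at an unadjusted p under 0.05. With array weights 7 members passed, among 312 genes in all. With quantile normalization 2 members passed, SREBF1 and SCD, among 23 genes in all. At an unadjusted p under 0.05 the counts were 8 for the time difference in untreated cells, 7 for that in cisplatin-treated cells and 1 for the cisplatin effect over both times. With array weights 10 members passed an adjusted p under 0.05 for the time difference in cisplatin-treated cells, among 544 genes in all. For the cisplatin effect at 24 h, 2 members passed with array weights, MVD and EBP. The estimate of the weights in the fit of 4 groups did not converge and gave untreated 24 h replicate 2 a weight of 17.4. With them 2254 genes passed at 24 h, and the member medians were 0.12 for the cisplatin effect at 48 h and 0.13 for the difference between the effects at the 2 times. That last median was -0.05 with all arrays, 0.0473 with quantile normalization and -0.14 to 0.0601 with 1 array left out, the latter without untreated 24 h replicate 3. The median time difference in untreated cells ran from 0.12 to 0.32 with 1 array left out. Quantile normalization lowered the members' median cisplatin effect over both times to 0.0007, with 14 of 27 positive.

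The replicate numbers were checked as a pairing of the arrays. Of 18 same-numbered pairs, 10 correlated above 0.1 in their deviations from the group means, with a range from -0.39 to 0.64 and a median of 0.19, beside -0.13 for pairs of other numbers. All 3 pairs were above 0.1 between the untreated and cisplatin arrays of 48 h (0.31, 0.60 and 0.17). Between the other conditions not all were, and the labels do not tie the numbers to the independent experiments, so whether a number marks a shared experiment is not settled. With the number as a block, 5 members (SREBF1, INSIG1, STARD4, SCD and FADS2) passed for the time difference over both treatments, among 87 genes in all, and 0 members passed in the other contrasts.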
